A study of Musca domestica with 10 samples.

Results

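In house fly embryos (Musca domestica), 14 of the 15803 counted genes were high at the cellular blastoderm and below 0.1 of that level in the stage before it and at germ band extension. These pulse genes were chosen by their measured levels, given as CPM (counts per 1000000 gene reads of the library). Both cellular blastoderm libraries had to reach 10 CPM. Both syncytial blastoderm libraries and both germ band extension libraries each had to lie below 0.1 of the lower cellular blastoderm value. Rise and fall around the cellular blastoderm are therefore descriptions here and carry no test. The gastrula and dorsal closure libraries took no part in the choice.

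RNA came from whole embryos at 5 stages, with 2 biological replicates of 100 embryos each and no treatment or mutation named in the labels. The stages were the syncytial blastoderm, with nuclei in a common cytoplasm, the cellular blastoderm, in which membranes have enclosed them, the gastrula, germ band extension, during which the trunk elongates, and dorsal closure, in which epidermal sheets seal the back. The shallowest library, syncytial blastoderm replicate 1, held 16288442 gene reads, and the other 9 held 42479342 to 83604709. The floor of 3 reads amounts to 0.184 CPM in that library and to between 0.0359 and 0.0706 CPM elsewhere. A whole embryo measures RNA of all its cells at once, so fewer cells expressing a gene and less RNA per cell cannot be told apart.

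At the start of insect development the embryo runs on transcripts laid down by the mother, and its own genome is switched on as the blastoderm forms. In Drosophila, some of the earliest zygotic genes are transcribed briefly while the cell membranes grow in, and their short messages are gone soon after. They include genes needed for building the cells and early patterning and dosage genes. The count files name genes by MDOA identifiers, 0 of which matched the reference gene table, so none of the 14 is given a name, role or sequence, and the stage labels could not be checked against marker genes.

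Most genes that came on at this stage missed the limit for a low germ band extension level. Of 5506 genes at 10 CPM or more in both cellular blastoderm libraries, 142 also lay below 0.1 of the lower value in both syncytial blastoderm libraries. Of these 142, the 14 pulse genes were those that met the germ band extension limit, and 128 did not. Some of the 128 had dropped without meeting it. MDOA006602 went from 1614 and 695 CPM at cellular blastoderm to 75.5 and 8.05 CPM at germ band extension. Without germ band extension replicate 1, 13 of the 128 would have met the rule. A total of 22 further genes met the germ band extension condition but had transcripts at syncytial blastoderm above the limit. The median level of the pulse genes at gastrula was 4.69% of their cellular blastoderm level, against 6.0% for these 22 genes and 176% for the 128. The rule kept the 128 apart because they missed the germ band extension limit. At dorsal closure the median was 0.016% of the cellular blastoderm level for the pulse genes, 6.08% for the 22 and 73.5% for the 128.

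**Figure D1:**
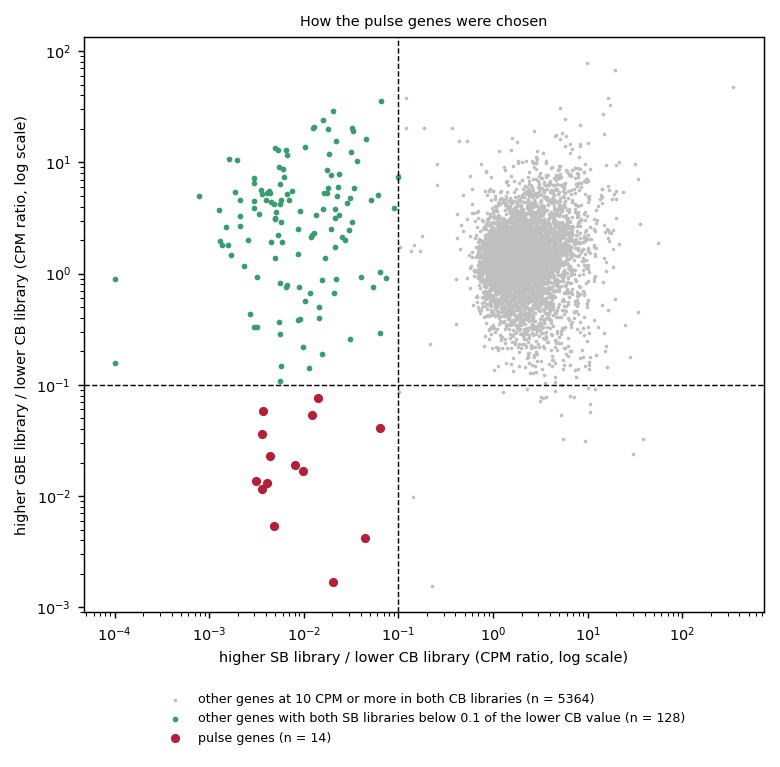
Each point is a gene with at least 10 CPM in both cellular blastoderm (CB) libraries. The x axis gives the higher syncytial blastoderm (SB) library and the y axis the higher germ band extension (GBE) library, each as a ratio to the lower CB library on log scales, and the dashed lines mark the ratio of 0.1. The 14 pulse genes fill the lower left corner, and the other 128 genes with low SB values lie above the horizontal line.

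The 14 genes covered a wide range of levels. Together they took 0.673% and 0.384% of all gene reads in the cellular blastoderm libraries, against 0.00208% and 0.000148% at syncytial blastoderm. Their share was 0.0286% and 0.0234% at gastrula, 0.00854% and 0.00216% at germ band extension, and 0.000174% and 0.000776% at dorsal closure. Mean levels at cellular blastoderm ran from 17.9 to 1488 CPM, and 10 of the 14 averaged at least 100 CPM. The most abundant, MDOA001171, ranked 111 among the 15803 genes at that stage and the least abundant, MDOA003325, ranked 5356. The cellular blastoderm held 89.8% to 98.4% of each gene's level summed over the 5 stage means (median 93.8%).

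Of the most abundant group, 7 genes averaged between 339 and 1488 CPM at the peak. In stage order, with replicate 1 before replicate 2, MDOA001171 gave 2.89 and 0.259 CPM at syncytial blastoderm (SB), 2173 and 803 at cellular blastoderm (CB), 51.4 and 49.7 at gastrula (G), 9.24 and 5.19 at germ band extension (GBE), and 0.703 and 2.61 at dorsal closure (DC). The peak libraries differed 2.71-fold while the gastrula libraries were close together. MDOA010365 gave 3.74 and 0.212 CPM at SB, 799 and 770 at CB, 13.9 and 11.6 at G, 4.18 and 2.22 at GBE, and 0.345 and 2.93 at DC. Its peak libraries were nearly equal, at 785 ± 20.4 CPM (SD, n = 2), and only 1.63% of that level was left at gastrula.

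MDOA009348 gave 2.21 and 0.235 CPM at SB, 837 and 593 at CB, 69.2 and 52.9 at G, 34.8 and 2.48 at GBE, and 0.123 and 0.203 at DC. It was the slowest of the 14 to fall by mean gastrula level (8.54% of the peak), and its germ band extension libraries were further apart in CPM than those of any other member. MDOA000687 gave 2.64 and 0.0471 CPM at SB, 695 and 331 at CB, 26.7 and 17.4 at G, 6.25 and 1.97 at GBE, and 0.0123 and 0.765 at DC. Its peak averaged 513 ± 258 CPM (SD, n = 2), with replicate 1 the higher. MDOA000456 gave 0.798 and 0.0942 CPM at SB, 735 and 221 at CB, 40.2 and 14.0 at G, 7.92 and 1.80 at GBE, and 0 and 0.0225 at DC. Its replicate 1 exceeded replicate 2 by 3.33-fold at the peak and by 2.87-fold at gastrula.

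MDOA002670 gave 1.11 and 0.353 CPM at SB, 542 and 273 at CB, 27.8 and 36.0 at G, 3.59 and 3.22 at GBE, and 0 and 0.0900 at DC. The order of its replicates turned over between the peak and gastrula, so 5.14% of the peak was left in replicate 1 and 13.2% in replicate 2. MDOA012793 gave 1.35 and 0.0235 CPM at SB, 305 and 374 at CB, 26.1 and 31.5 at G, 7.0 and 2.14 at GBE, and 0.395 and 1.04 at DC. It kept 8.56% and 8.41% of its peak at gastrula, the closest agreement between replicates among these 7 genes.

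A middle group of 4 genes averaged 72.8 to 141 CPM at the peak. MDOA007146 gave 1.35 and 0.0235 CPM at SB, 138 and 144 at CB, 7.46 and 5.94 at G, 2.33 and 0.872 at GBE, and 0.0123 and 0 at DC. MDOA009940 gave 1.11 and 0.0471 CPM at SB, 183 and 89.6 at CB, 11.9 and 5.88 at G, 4.84 and 0.550 at GBE, and 0 and 0.0450 at DC. In both, replicate 1 was the higher library at germ band extension and dorsal closure was at or below the floor of 3 reads. MDOA015479 gave 0.246 and 0 CPM at SB, 149 and 79.5 at CB, 4.68 and 5.9 at G, 1.09 and 0.777 at GBE, and 0 and 0.0225 at DC. MDOA008087 gave 0.614 and 0 CPM at SB, 102 and 43.2 at CB, 5.84 and 2.45 at G, 3.28 and 0.227 at GBE, and 0 and 0.0225 at DC. This last gene was the nearest to the limit of the rule, with germ band extension replicate 1 at 0.0759 of the lower peak value.

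The remaining 3 genes averaged 17.9 to 44.2 CPM at the peak and were below 1 CPM in both gastrula libraries. MDOA000113 gave 0.798 and 0.118 CPM at SB, 39.7 and 48.8 at CB, 0.383 and 0.223 at G, 0.0675 and 0.0569 at GBE, and 0.148 and 0.0225 at DC. MDOA003325 gave 1.11 and 0.0706 CPM at SB, 17.2 and 18.6 at CB, 0.621 and 0.649 at G, 0.702 and 0.0190 at GBE, and 0 and 0 at DC. MDOA001939 gave 0.860 and 0 CPM at SB, 19.3 and 48.1 at CB, 0.0661 and 0.0203 at G, 0.0810 and 0.0569 at GBE, and 0 and 0 at DC. The last of these rested on 5 reads and 1 read at gastrula, with exact 95% Poisson intervals of 0.0215 to 0.154 and 0.000514 to 0.113 CPM, against 1612 and 2202 reads at the peak. By share it was the sharpest pulse, with 98.4% of its summed level at cellular blastoderm, although its peak libraries differed more than 2-fold. Before the peak it was not: syncytial blastoderm replicate 1 stood at 4.46% of the replicate 1 peak. The median over the 14 genes was 0.456%. Its syncytial blastoderm replicate 2 had 0 reads. Poisson intervals cover counting error only.

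**Figure D2:**
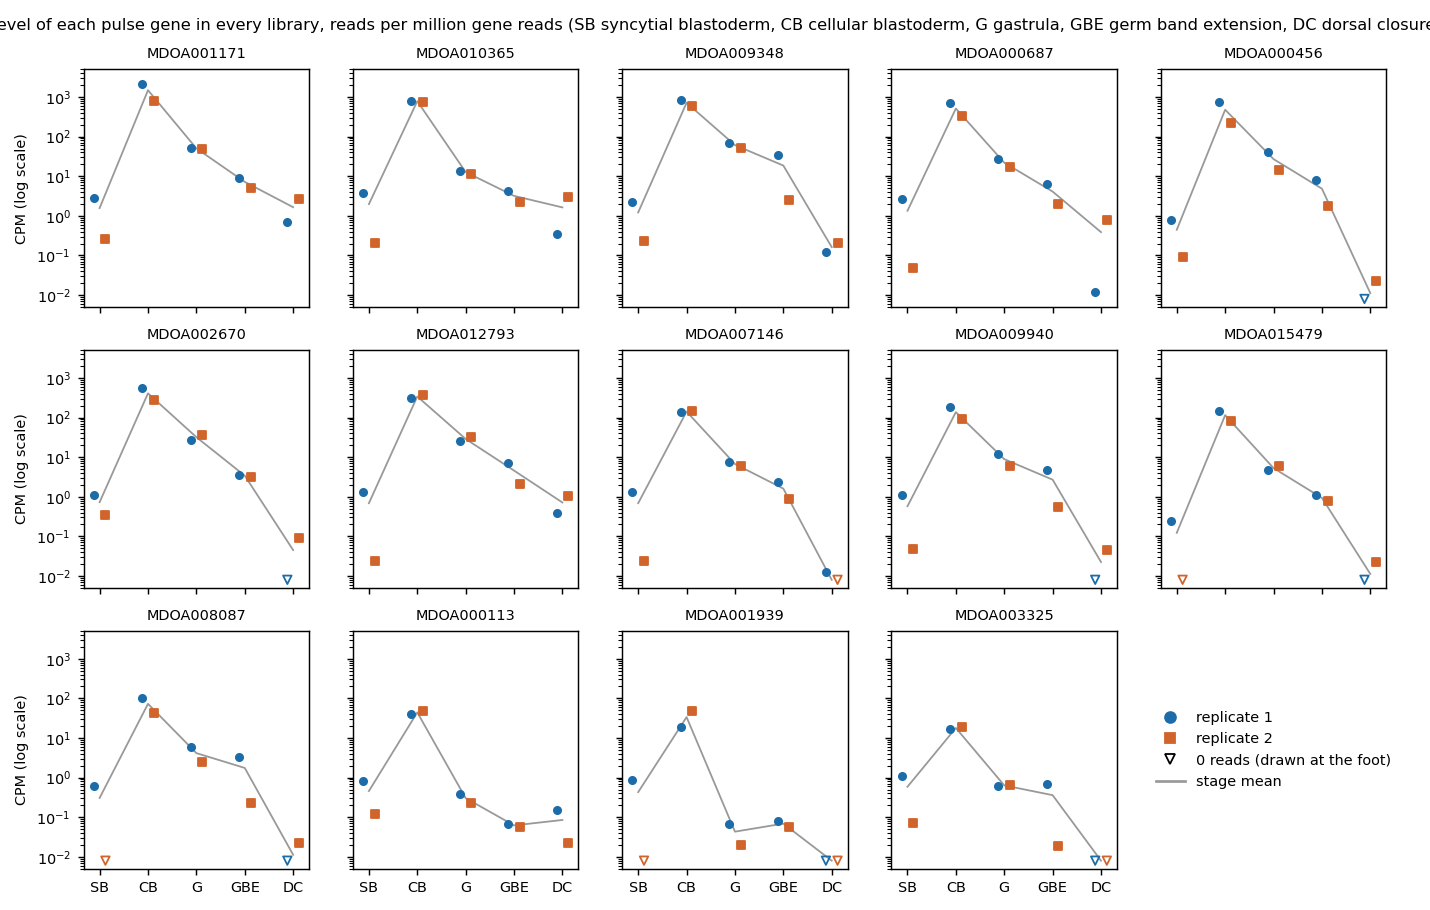
CPM on a log axis for the 14 pulse genes in all 10 libraries, with circles for replicate 1, squares for replicate 2 and a line through the stage means; open triangles are libraries with 0 reads. Every gene stands highest at cellular blastoderm. At syncytial blastoderm replicate 1 is the higher in all 14 panels, with replicate 2 at 0 reads in 3 of them.

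In the gastrula libraries, which the rule did not use, all 14 genes had dropped well below the peak. In 8 of the 14 both gastrula libraries lay below 0.1 of the lower peak library, and in 0 of the 14 had both stayed at 0.5 or more of it. Of the 22 other genes that were low at germ band extension, 10 lay below 0.1 at gastrula and 0 stayed at 0.5 or more, so the early drop was shared by genes with transcripts before the cellular blastoderm. Of all 5506 genes at the same peak floor, 0.4% lay below 0.1 at gastrula and 4429 stayed at 0.5 or more. The remaining 6 pulse genes were MDOA009348, MDOA000456, MDOA002670, MDOA012793, MDOA009940 and MDOA008087, with the higher gastrula library at 0.103 to 0.182 of the lower peak library. Because the rule required high cellular blastoderm values, the drop from that stage to gastrula was not tested.

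Set against the peak of the same replicate number, the level left at gastrula was 0.343% to 8.56% in replicate 1 (median 4.49%) and 0.0421% to 13.2% in replicate 2 (median 5.93%). The lowest values belonged to MDOA001939 and the next lowest to MDOA000113, while 12 of the 14 genes lay between 1.63% and 8.54% by stage means. MDOA003325, the least abundant of all, kept 3.55%, so the 3 low-level genes differed in what was left. The rule required low germ band extension values, so a fall from gastrula to that stage was favoured by the choice and was not tested. Over this step the level fell further in 12 of 14 genes in replicate 1 and in 13 of 14 in replicate 2. The exceptions were MDOA001939 in both replicates and MDOA003325 in replicate 1, with 6 reads at germ band extension against 5 at gastrula, 3 against 1, and 52 against 47. The median level left at germ band extension was 0.988% of the peak in replicate 1 and 0.584% in replicate 2.

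**Figure D3:**
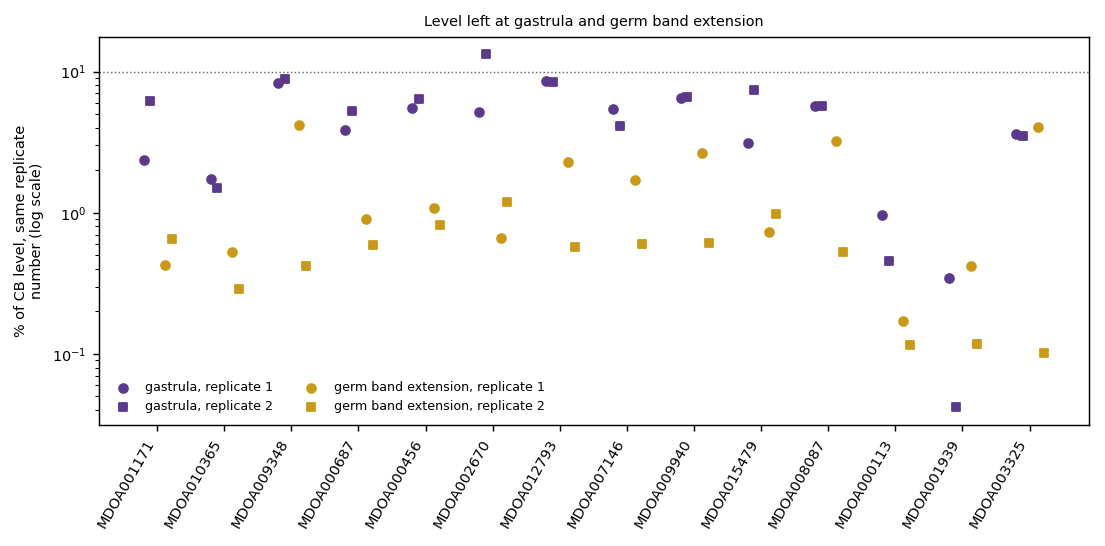
Level at gastrula (purple) and germ band extension (yellow) as a percentage of the cellular blastoderm (CB) level of the same replicate number, on a log axis, with genes in order of their peak. Circles are replicate 1 and squares replicate 2; 12 genes hold 1.63% to 8.54% by stage means at gastrula, MDOA000113 and MDOA001939 hold less, and the dotted line marks 10%.

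Dorsal closure against gastrula was the comparison between stages that the rule left untouched, and it showed whether the genes went on falling or came back. Expression was lower at dorsal closure than at gastrula in 11 of the 14 genes (78.6%) and higher in 0, by edgeR's quasi-likelihood test at a Benjamini-Hochberg adjusted p under 0.05 over 11286 tested genes. Of all tested genes, 12.5% were lower and 17.8% higher in the same test. All 14 were among the tested genes, since their cellular blastoderm reads alone pass the filter on low counts. Germ band extension, which the rule required to be low, lies between these stages, so the direction is not wholly free of the choice. With the replicate number as a block, 12 of the 14 (85.7%) were lower, against 25.3% of all tested genes. Scaled by DESeq2's size factors, 10 of the 14 were lower, against 907 lower and 2421 higher of all tested genes (1414 and 2008 with TMM).

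The fitted log2 fold changes, dorsal closure over gastrula, had a median of -8.53 over the 14 genes and 0.087 over all tested genes. With MDOA003325 placed at its bound and MDOA001939 left out, since both had 0 reads at dorsal closure, the median was -8.70. That value is the fitted change of MDOA008087, which had 1 read at dorsal closure. Both medians therefore depend on the prior count. In all 14 genes both dorsal closure libraries lay below both gastrula libraries, which 29% of all tested genes showed. In 0 of the 14 did both dorsal closure libraries reach 10 CPM, and 11 were below 1 CPM in both. MDOA001171, MDOA010365 and MDOA012793 were the 3 exceptions, each above 1 CPM in dorsal closure replicate 2 alone.

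Among the genes that fell, MDOA002670 averaged 0.045 ± 0.0637 CPM at dorsal closure and 31.9 ± 5.79 CPM at gastrula (SD, n = 2 each). Its log2 fold change was -9.86 with an SE of 1.30 (adjusted p = 0.0034 in edgeR). That size rests on 0 and 4 reads at dorsal closure and depends on the prior count. The fitted change was -8.575 without dorsal closure replicate 1 and -13.95 without replicate 2. MDOA009348 averaged 0.163 ± 0.056 CPM at dorsal closure and 61.0 ± 11.5 CPM at gastrula. It changed by -8.72 on the log2 scale (SE 1.52, edgeR adjusted p = 0.0063). MDOA001171 had a smaller fall, at 1.66 ± 1.35 CPM at dorsal closure and 50.6 ± 1.25 CPM at gastrula. Its log2 change was -5.08 (SE 1.15, edgeR adjusted p = 0.014). MDOA012793 was similar, at -5.51 (SE 1.33, edgeR adjusted p = 0.018). MDOA000687 lay near the threshold at -5.97 (SE 1.85, edgeR adjusted p = 0.04). The edgeR adjusted p of MDOA000687 was 0.057 with DESeq2's size factors, 0.051 with the upper quartile, 0.059 without a filter, 0.055 with the stricter filter and 0.061 with the 2 stages alone.

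A further 5 genes that fell had 1 or 2 reads in all at dorsal closure, where the fitted size depends on the prior count. Pooled over both libraries, dorsal closure was 0.000267 of gastrula for MDOA000456 (exact 95% interval 6.75e-06 to 0.00149) and 0.00116 for MDOA007146 (2.94e-05 to 0.00649). It was 0.00154 for MDOA015479 (3.9e-05 to 0.00863), 0.00167 for MDOA009940 (0.000202 to 0.00606) and 0.00177 for MDOA008087 (4.47e-05 to 0.00989). Their edgeR adjusted p values were 0.0043, 0.007, 0.0059, 0.012 and 0.022 in the order given. The intervals on pooled reads cover counting error only and leave out the spread between embryo samples. MDOA003325 had 0 reads in both dorsal closure libraries and was at least 12.2-fold lower than at gastrula, with the floor of 3 reads taken in each dorsal closure library (edgeR adjusted p = 0.036).

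The other 3 genes did not pass. MDOA010365 averaged 1.64 ± 1.82 CPM at dorsal closure and 12.8 ± 1.69 CPM at gastrula (SD, n = 2 each), with an edgeR adjusted p of 0.083 without the block and 0.049 with it. MDOA000113 averaged 0.0852 ± 0.0887 CPM at dorsal closure and 0.303 ± 0.113 CPM at gastrula (edgeR adjusted p = 0.18, and 0.08 with the block), and its gastrula level was already low. For MDOA001939, 0 reads at dorsal closure stood against 6 at gastrula (edgeR adjusted p = 0.2, and 0.18 with the block), a difference not detectable at this depth.

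Calls moved with single libraries. Fewer of the 14 were called lower when any 1 dorsal closure or gastrula library was left out, which leaves 1 library in that stage. Fewer of all tested genes were called lower in those fits too. Of the dorsal closure libraries, replicate 2 was the higher in 10 of the 14 genes, replicate 1 in 2, and both had 0 reads in 2. In 7 of the 14 both libraries had 3 reads or fewer, so much of this tally rests on very few reads. Replicate 1 was the higher in 58.2% of all 5506 genes at the peak floor. It was the higher in 63.6% of the 22 other genes low at germ band extension and in 39.8% of the other 128. Without dorsal closure replicate 1 the edgeR adjusted p was 0.066 for MDOA001171, 0.099 for MDOA000687, 0.083 for MDOA012793, 0.059 for MDOA009940, 0.1 for MDOA008087 and 0.12 for MDOA003325. Without gastrula replicate 2 it was 0.063 for MDOA001171, 0.1 for MDOA000687, 0.071 for MDOA012793, 0.06 for MDOA008087 and 0.1 for MDOA003325. Without gastrula replicate 1 it was 0.098 for MDOA000687, 0.068 for MDOA008087 and 0.088 for MDOA003325. Without dorsal closure replicate 2 it was 0.056 for MDOA008087, 0.095 for MDOA003325 and, now past the threshold, 0.041 for MDOA010365. Without cellular blastoderm replicate 1 it was 0.051 for MDOA000687 and MDOA003325, and without cellular blastoderm replicate 2 it was 0.052 for MDOA003325. Without syncytial blastoderm replicate 1 it was 0.049 for MDOA010365.

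**Figure D4:**
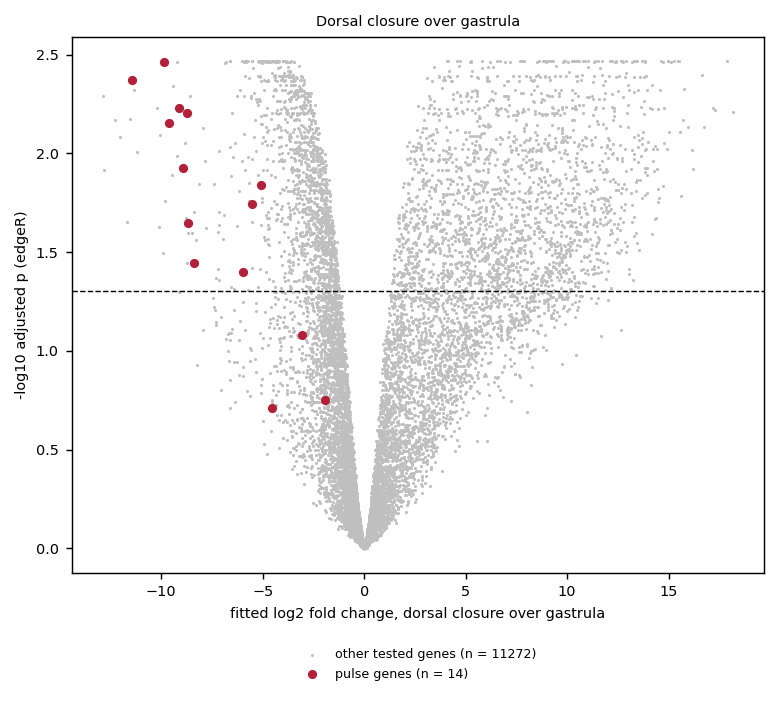
Fitted log2 fold change of dorsal closure over gastrula (x axis) against the edgeR adjusted p on a -log10 scale (y axis) for the 11286 tested genes, with the 14 pulse genes in red and the 0.05 threshold dashed. All 14 lie left of 0, 11 of them above the line.

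The replicate libraries of the flanking stages differed in how much of these transcripts they held. At syncytial blastoderm, all 14 genes were higher in replicate 1 than in replicate 2, against 11 of the 22 other genes low at germ band extension and 56.3% of the other 128 genes first high at cellular blastoderm. The level there was 0.456% of the peak of the same replicate number at the median in replicate 1 and 0.0299% in replicate 2. For the other 128 genes the medians were 0.305% and 0.298%. Replicate 1 was also the shallowest library, and its 339 reads over the 14 genes compare with 63 in replicate 2.

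At germ band extension, all 14 were again higher in replicate 1, as were 19 of the 22 other genes low at this stage and 71.1% of the other 128 genes. Over the 14 genes together, 85.4 CPM were left in replicate 1 and 21.6 CPM in replicate 2. The highest of the 4 flanking libraries was germ band extension replicate 1 in 11 genes and syncytial blastoderm replicate 1 in the other 3 genes. At the peak, replicate 1 was the higher in 9 of the 14 genes, and the ratio of replicate 1 to replicate 2 ran from 0.401 to 3.33 (median 1.65). It was the higher there in 51.4% of all 5506 genes at the peak floor, 18.2% of the other 22 and 74.2% of the other 128. The part of depth in these differences was not tested.

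**Figure D5:**
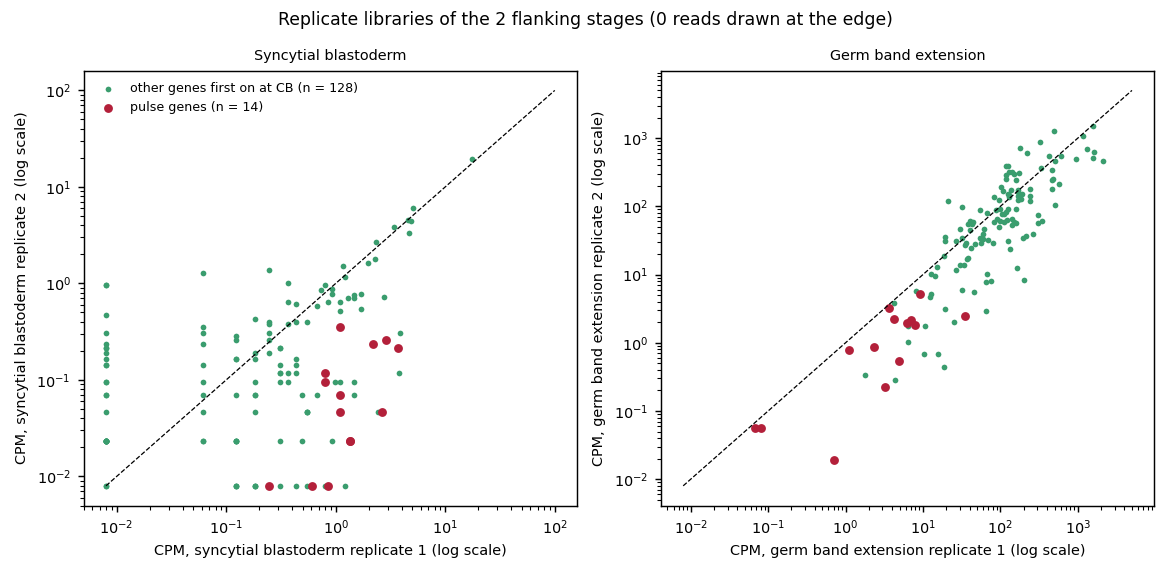
CPM in replicate 1 (x axis) against replicate 2 (y axis) on log scales at syncytial blastoderm and germ band extension, for the 14 pulse genes (red) and the other 128 genes first on at cellular blastoderm (CB, green), with the line of equality dashed. All 14 red points lie below the line in both panels.

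The size of the group moved most with 2 libraries. Without germ band extension replicate 1 the rule gave 27 genes and without cellular blastoderm replicate 2 it gave 24, in each case the 14 plus others. The genes just outside the ratio of 0.1 were MDOA011536 (0.102, set by syncytial blastoderm replicate 1), MDOA006602 (0.109, set by germ band extension replicate 1) and MDOA002186 (0.141, set by the same library). Just inside were MDOA008087 (0.0759), MDOA003325 (0.0642) and MDOA009348 (0.0586). MDOA006602 peaked at 1614 and 695 CPM, on average above every member but MDOA001171, and stood at 224 and 243 CPM at gastrula. MDOA011536 differed from the members at the ends of the series, with 35.3 and 15.98 CPM at syncytial blastoderm and 25.6 and 12.1 CPM at dorsal closure.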

How the data were processed

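Per the labels' protocols, RNA was extracted with Tri-reagent, treated with DNase and sequenced in pairs of 100 bp (insert 200 bp) on a HiSeq2000. Each library has a deposited file of raw gene counts, made with STAR and HTSeq per the submitters' processing notes. For versions, genome build, annotation and strand setting, the sources used here give nothing. Reads that were ambiguous between genes or not uniquely aligned stayed out of the gene counts, so counts of overlapping or near-identical genes may be incomplete. The 5 rows that name no gene were dropped: 10.5% to 25% of reads fell outside genes, 5.31% to 10.7% had no unique alignment and 0.353% to 0.661% were ambiguous.

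CPM in the text uses total gene reads. Dorsal closure over gastrula was tested in R 4.3.3 with edgeR 4.0.16 (filterByExpr, TMM, robust quasi-likelihood, 1 coefficient per stage, all 10 libraries, 5 residual degrees of freedom). Standard errors are the unshrunken change over the square root of F. The test was also run on simulated counts. Alternatives were scaling by upper quartile, total counts or DESeq2's size factors, keeping all genes with a count or only those at 5 CPM in 2 libraries, DESeq2 1.42.0, limma-voom (limma 3.58.1), a replicate block, the 2 stages alone, leaving out each library, and other limits in the rule. Replicate differences correlated between all 10 pairs of stages (r from 0.321 to 0.608, above the level of 0.1 set for pairing). The numbers were therefore taken to pair the samples in the block fit and in ratios within a replicate number. The main test, with its standard errors, left the block out. The estimated biological coefficient of variation was 0.693 in the main fit and 0.461 with the block. No label ties a number to a batch, and p-values measure the spread between these samples.

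Members and lists were chosen with earlier results of these data known. All members are named, together with the 3 genes nearest outside the ratio limit. Lists of fly developmental genes had been written for use with gene names, and 0 identifiers could be matched, so none was used.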

Additional observations from a re-analysis of the deposited data

How the results depend on the processing

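All 14 genes stayed lower at dorsal closure than at gastrula under each alternative in which they could be fitted. The calls, 11 with all libraries, numbered 10 to 12 under the other scalings, filters and tools and with the 2 stages alone. They numbered 12 with the replicate block, which added MDOA010365 and changed no other call of the 14. Fewer of the 14 were called when a gastrula or dorsal closure library was left out, and fewer of all tested genes were called lower as well. DESeq2's size factors shifted the median over all tested genes to 0.59 on the log2 scale, small beside the members' -8.53. The exact size of the members' median depends on the prior count.

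The number of pulse genes was 14 to 27 when 1 library was left out, and 10 to 21 under other limits or scalings. The genes below 0.1 of the peak at gastrula, 8 in the report, numbered 8 to 16 without 1 library. Under other limits or scalings they numbered 6 (floor of 20 CPM) to 10 (floor of 5 CPM). Genes that stayed at 0.5 or more at gastrula numbered 1 with a ratio limit of 0.2 and 0 to 4 without 1 library. Those at 10 CPM or more at dorsal closure numbered 1 on TMM-scaled library sizes, on DESeq2 size factors and with a ratio limit of 0.2, and 0 to 2 without 1 library. Below 1 CPM at both ends were 5 genes, 9 on TMM-scaled sizes, 9 on DESeq2 size factors, 8 with a floor of 5 CPM and 5 to 13 without 1 library. They numbered 7 with a ratio limit of 0.2, and 4 with a floor of 20 CPM or a ratio limit of 0.05. In each of these settings the rule was applied anew, so the genes counted can differ. Depth limits MDOA001939 and all dorsal closure values near 3 reads.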
